A study of Mus musculus with 6 samples.

Results

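The genes Parp3, Parp9, Parp10, Parp11, Parp12 and Parp14 of the poly(ADP-ribose) polymerase (PARP) family and the ubiquitin ligase gene Dtx3l were followed in mouse embryonic fibroblasts (MEFs) with and without the mitochondrial protease YME1L. The 7 genes were chosen by name, as the loci of the deposited count table whose gene name holds one of these symbols. They make up 7 of 51499 loci in the table and 7 of the 13867 loci with enough fragments to be tested. RNA sequencing of poly(A)-selected transcripts covered 3 WT and 3 Yme1l-/- cultures, a comparison that addresses how loss of YME1L changes gene expression, above all that of interferon-stimulated genes (ISGs). WT cells carried the floxed, undeleted gene (Yme1l fl/fl), and in Yme1l-/- cells it had been deleted by Cre recombinase. Both genotypes were MEFs immortalized with the SV40 large T antigen and expanded as individual clones after Cre transduction. The number of clones behind the cultures is not given in the sources used here, so p-values measure the spread between cultures, and differences between clones cannot be told apart from the genotype. The labels name no interferon treatment for any library.

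PARP enzymes transfer ADP-ribose from NAD+ onto proteins or nucleic acids. PARP1, PARP2 and the tankyrases build chains, whereas most of the other members, PARP10, PARP11, PARP12 and PARP14 among them, attach a single unit. Several of these mono-ADP-ribosyltransferases are ISGs with antiviral roles, and PARP9 works in a complex with DTX3L, an E3 ubiquitin ligase. In fibroblasts such genes are switched on by type I and type II interferons, while PARP3 is known mainly for its role at DNA breaks.

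The libraries held 33180867 to 34012520 counted fragments in WT and 34624075 to 49351107 in Yme1l-/-, where replicate 1 was the shallowest. Values are given as CPM, fragment counts scaled to library size. The deleted gene, listed as Yme1l1, averaged 188.7 ± 5.16 CPM in WT against 39.1 ± 1.34 CPM in Yme1l-/- (SD, n = 3 each), a log2 fold change of -2.27 ± 0.05 (SE). Of the fibroblast markers, Col1a1, Col1a2, Vim and Fn1 were abundant in all libraries, while Thy1 had at most 6 fragments and Lum at most 11 in any library. The summed level of 10 fibroblast markers was 10840 to 11400 CPM in WT and 6647 to 7133 CPM in Yme1l-/-. Col1a1 was called higher (0.43 ± 0.06, SE) and 6 of the 8 tested lower, and WT replicate 2 stood apart from the other WT libraries at Col3a1 (9860 fragments against 2858 and 2974) and Dcn (257 against 52 and 51). Markers of macrophages and leukocytes summed to 5.14 to 5.24 CPM in WT and 7.44 to 8.23 CPM in Yme1l-/-. Of these 10 markers Adgre1 and Cx3cr1 had no fragment and Ptprc at most 1, whereas Cd68 (log2 fold change 1.04 ± 0.14, SE) and Cd14 (0.37 ± 0.14) were called higher in Yme1l-/- and Mrc1 lower. Epithelial markers, mainly Krt18 and Krt19, summed to 142 to 159 CPM in WT and 2.75 to 3.69 CPM in Yme1l-/-, and endothelial markers to 1.72 to 2.81 CPM over all libraries, with Kdr called higher (0.72 ± 0.22) and Erg lower, from 22 to 41 fragments to at most 1. The part of these differences in the results for the 7 genes was not tested.

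Transcripts of all 7 loci were higher in Yme1l-/- MEFs, by 1.56-fold for the locus that holds Parp10 to 7.15-fold for Parp14. Each of the 7 had an adjusted p under 0.05 (quasi-likelihood test of edgeR, adjusted by Benjamini-Hochberg over every tested locus), and at each of them the 3 Yme1l-/- libraries lay above the 3 WT libraries. The genotypes differed widely, and these shares have to be read against that background. Across all tested loci, 67.7% were called in either direction, 33.6% higher and 34.1% lower, and 35.9% had all Yme1l-/- libraries above all WT libraries. A call with at least a 2-fold rise was made for Parp14, Parp12, Parp9 and Dtx3l, 4 of the 7, and for 9.10% of all tested loci. The median log2 fold change was 1.24 over the 7 loci and -0.0041 over all tested loci. In bulk RNA, a larger share of cells that make a transcript and more transcript per cell cannot be told apart.

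**Figure D1:**
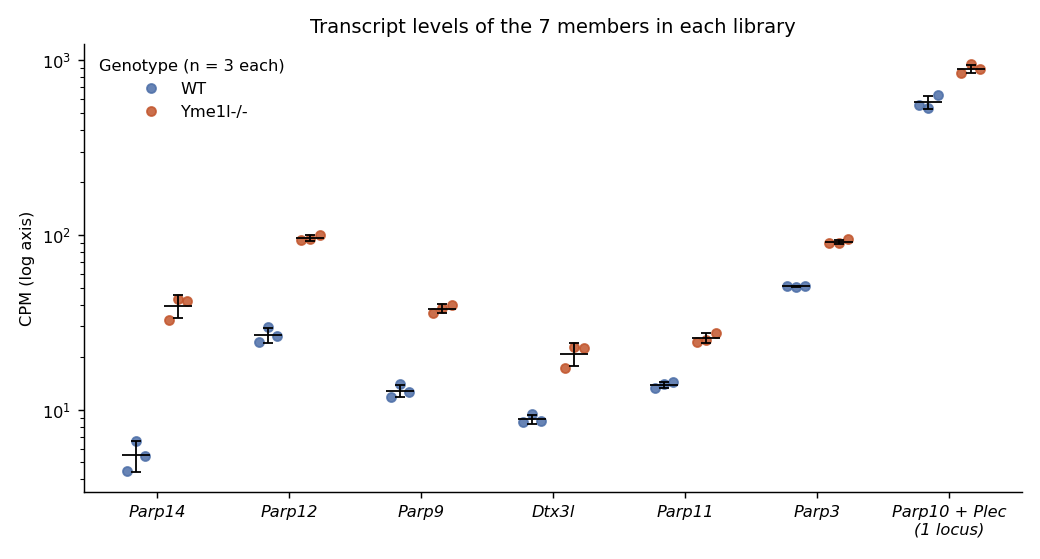
CPM on a log axis for the 7 loci in the 6 libraries, with WT in blue and Yme1l-/- in orange; horizontal lines mark the mean and error bars the SD of 3 libraries, and points run from replicate 1 to 3. All Yme1l-/- points lie above the WT points of the same locus, from 32.6 to 43.3 CPM against 4.44 to 6.66 CPM for Parp14.

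Parp14, Dtx3l and Parp9 lie together on chromosome 16. In GRCm38 coordinates, Parp14 spans chr16:35832874-35871544 on the minus strand, Dtx3l follows 54966 bases further on at chr16:35926511-35939151 on the minus strand, and Parp9 occupies chr16:35938470-35972605 on the plus strand. Parp9 and Dtx3l are thus transcribed away from each other from starts that overlap by 682 bases. The strand setting of the authors' counting is not given in the sources used here, so fragments from these shared bases may be assigned to either gene.

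Parp14 encodes a large mono-ADP-ribosyltransferase with macrodomains, modules that bind ADP-ribose. It had 4.44, 6.66 and 5.45 CPM in WT replicates 1 to 3 and 32.6, 43.3 and 42.1 CPM in Yme1l-/- replicates 1 to 3. The lowest Yme1l-/- library thus stood far above the highest WT library. The means were 5.52 ± 1.11 CPM and 39.35 ± 5.87 CPM (SD, n = 3 each), and the log2 fold change of 2.84 ± 0.16 (SE, adjusted p = 8.38e-07) was the largest of the 7 and higher than that of 97.9% of tested loci. In fragments the rise was from 147 to 218 per WT library to 1141 to 2183 per Yme1l-/- library.

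Parp9 encodes a macrodomain protein, the partner of DTX3L. Its level was 11.9, 14.0 and 12.7 CPM in WT and 35.6, 38.1 and 40.0 CPM in Yme1l-/-. The libraries of a genotype differed little from each other, with means of 12.9 ± 1.07 and 37.9 ± 2.21 CPM (SD, n = 3 each). The log2 fold change was 1.56 ± 0.07 (SE, adjusted p = 1.12e-08), a 2.95-fold rise.

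Dtx3l was at 8.52, 9.47 and 8.61 CPM in WT and at 17.35, 22.85 and 22.67 CPM in Yme1l-/-. The 3 WT libraries were close together, and Yme1l-/- replicate 1 stood below the other 2 Yme1l-/- libraries but above every WT library. The log2 fold change was 1.24 ± 0.11 (SE, adjusted p = 1.58e-06), or 2.37-fold, from 8.87 ± 0.525 to 20.95 ± 3.13 CPM (SD, n = 3 each). A palindromic motif, TTC and GAA separated by any 4 bases, lay 35 to 44 bases downstream of the RefSeq start of Dtx3l. It is shown in capitals in the 22 bases around it, chr16:35938978-35938999 (GRCm38.p6, minus strand, read 5′ to 3′), because it is the only match in the promoter window of the gene that pairs with Parp9.
Dtx3l: gggaccTTCTGGGGAAtcgaaa
This motif was present in 6.95% of 32851 RefSeq promoter windows of the same length (250 bases before to 50 bases after a start), and a match is no evidence of binding.

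Since the protein products of Parp9 and Dtx3l act together, the ratio of their fragments was compared within each library. It was 1.40, 1.48 and 1.47 Parp9 fragments per Dtx3l fragment in WT and 2.05, 1.67 and 1.77 in Yme1l-/-. All 3 Yme1l-/- ratios were above the WT ratios, and replicate 1, the library with the lowest Dtx3l level of its genotype, had the highest. On the log2 scale the mean ratio was 0.54 ± 0.05 in WT and 0.86 ± 0.15 in Yme1l-/- (SD, n = 3 each), a difference of 0.33. An exact two-sided permutation test over the 6 libraries gave p = 0.1, the smallest value it can give for 3 against 3, so this test cannot pass 0.05. Across the alternatives the difference lay between 0.24 and 0.39.

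**Figure D2:**
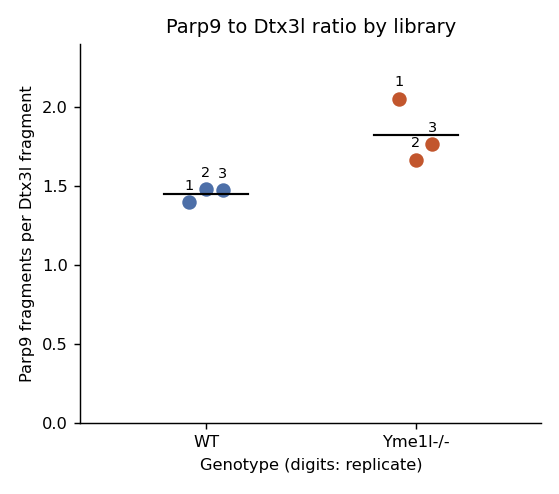
Parp9 fragments per Dtx3l fragment in each library, with the replicate number above each point and the genotype mean of the log2 ratios, converted back, as a line; the axis starts at 0. WT libraries lie between 1.40 and 1.48 and Yme1l-/- libraries between 1.67 and 2.05.

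Parp12 and Parp11 are both on chromosome 6 but far apart, at chr6:39086410-39118349 (minus strand) and chr6:127446840-127494261 (plus strand). Parp12 encodes a CCCH zinc-finger mono-ADP-ribosyltransferase, a relative of the antiviral protein ZAP. Its level was 24.4, 29.7 and 26.3 CPM in WT and 93.2, 95.3 and 99.9 CPM in Yme1l-/-. No Yme1l-/- library came near the WT range, and their spread was small, with means of 26.8 ± 2.66 and 96.15 ± 3.42 CPM (SD, n = 3 each). The log2 fold change of 1.84 ± 0.07 (SE, adjusted p = 1.52e-09) corresponded to 3.59-fold, second among the 7 to Parp14.

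PARP11 is a mono-ADP-ribosyltransferase of the nuclear envelope with a WWE domain. Parp11 transcripts were at 13.3, 14.1 and 14.4 CPM in WT and at 24.3, 25.1 and 27.6 CPM in Yme1l-/-. The groups were well separated relative to their spread, 13.9 ± 0.583 against 25.7 ± 1.71 CPM (SD, n = 3 each). At a log2 fold change of 0.88 ± 0.07 (SE, adjusted p = 7.6e-07), or 1.85-fold, the rise was smaller than at Parp12. The median of all tested loci on chromosome 6 was 0.34, and relative to that median Parp11 was higher by 0.54 and Parp12 by 1.50 on the log2 scale.

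RefSeq promoter windows were at hand for 4 of the 7 genes, Parp3, Parp11 (2 windows), Parp12 and Dtx3l. Each was searched on both strands for the core of the interferon-stimulated response element (ISRE), GAAA followed by any 2 bases and GAAA, for the gamma-activated site (GAS), TTC followed by any 3 bases and GAA, and for the palindrome with 4 spacer bases. The upstream window of Parp11 held an ISRE core, read on the minus strand, at positions -44 to -35 from the start and a GAS at -37 to -29, which overlap by 3 bases. ISRE cores were present in 3.44% and GAS in 8.3% of all windows. The windows of Parp12 and Parp3 and the second window of Parp11 held none of the 3 motifs, which says only that these letters are not in these windows. The 250 bases before the start are shown for both genes of chromosome 6, Parp11 (chr6:127446590-127446839, plus strand) with the motif matches in capitals and Parp12 (chr6:39118350-39118599, minus strand) with CG dinucleotides in capitals, because these upstream windows differ most in GC content. Both are from GRCm38.p6 and read 5′ to 3′.
Parp11: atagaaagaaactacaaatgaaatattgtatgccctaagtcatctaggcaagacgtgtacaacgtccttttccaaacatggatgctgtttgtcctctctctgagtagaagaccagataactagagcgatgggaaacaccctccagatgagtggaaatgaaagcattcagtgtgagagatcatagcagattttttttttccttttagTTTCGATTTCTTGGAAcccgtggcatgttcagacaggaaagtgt
Parp12: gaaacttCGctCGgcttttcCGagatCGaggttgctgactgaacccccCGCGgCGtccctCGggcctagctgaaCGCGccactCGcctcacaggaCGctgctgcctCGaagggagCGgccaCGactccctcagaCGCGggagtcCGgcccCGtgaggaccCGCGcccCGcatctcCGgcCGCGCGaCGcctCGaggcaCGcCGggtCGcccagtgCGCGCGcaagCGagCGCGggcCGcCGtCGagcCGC
In the full windows, Parp12 had a GC content of 73.7% with 46 CG dinucleotides. The upstream window of Parp11 had 42.0% and 5 and its second window 59.0% and 25, while that of Dtx3l had 54.3% and 17 and that of Parp3 57.7% and 16.

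Parp3, at chr9:106470322-106476949 on the minus strand, encodes an enzyme that acts at DNA double-strand breaks. It was the member with the tightest replicates, at 51.15, 50.6 and 50.8 CPM in WT and 90.2, 90.3 and 94.4 CPM in Yme1l-/-. The WT libraries were almost equal, and every Yme1l-/- library was higher by about the same amount. The means of 50.9 ± 0.2815 and 91.6 ± 2.42 CPM (SD, n = 3 each) gave a log2 fold change of 0.85 ± 0.04 (SE, adjusted p = 2.18e-08), or 1.80-fold. The median of all tested loci on chromosome 9 was -0.36, so Parp3 lay 1.21 above the median of its chromosome.

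Parp10 was not counted on its own. It spans chr15:76231174-76243441 and its 3′ end overlaps the 5′ end of Plec (chr15:76170974-76232574, also minus strand) by 1401 bases, and the authors' assembly joined both into 1 locus whose fragments cannot be divided between the genes. PARP10 is a mono-ADP-ribosyltransferase, and plectin, the product of Plec, links cytoskeletal filaments. The joint locus had 557, 533 and 629 CPM in WT and 849, 947 and 886 CPM in Yme1l-/-, so the genotypes did not overlap. From 573 ± 49.75 to 894 ± 49.2 CPM (SD, n = 3 each), its log2 fold change was 0.64 ± 0.07 (SE, adjusted p = 7.44e-06), the smallest of the 7. Chromosome 15 had a median log2 fold change of 0.59 over 545 tested loci. With the median of each chromosome removed, the locus stood at 0.05 ± 0.07 (SE, adjusted p = 0.554) and was no longer called, and the direction of Parp10 itself is not known from these counts.

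**Figure D3:**
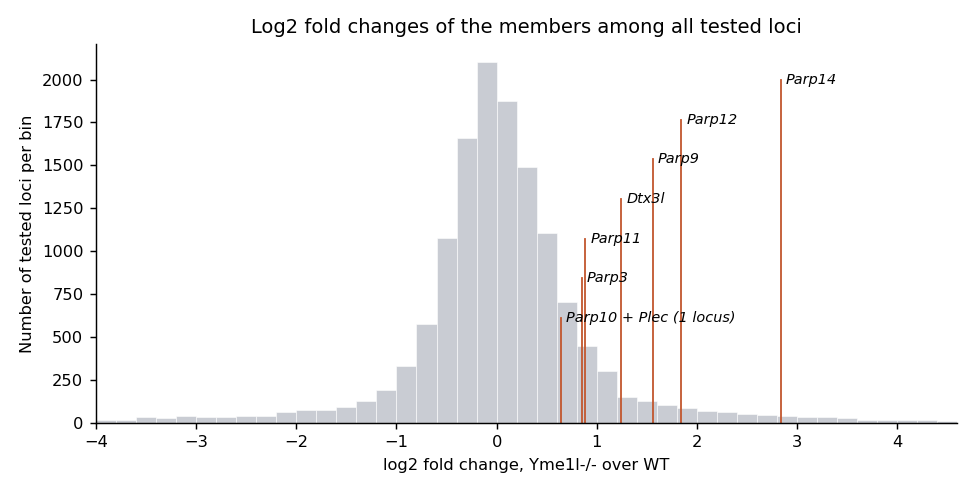
Histogram of log2 fold changes (Yme1l-/- over WT) of tested loci in bins of 0.2, with vertical lines at the 7 loci; line height serves only to separate the names, and 392 loci outside the axis are not drawn. The members lie between 0.64 and 2.84, to the right of the peak near 0.

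With the loci ordered by log2 fold change, as Parp14, Parp12, Parp9, Dtx3l, Parp11, Parp3 and Parp10 with Plec, the ratio of each gene to the next is higher in Yme1l-/- by construction, and its spread is given as a description without a test. The ratios of WT and Yme1l-/- libraries overlapped for Parp11 against Parp3, at 0.260 to 0.283 in WT and 0.270 to 0.292 in Yme1l-/-, so the rises of these genes did not differ beyond their spread. Parp14 over Parp12 moved most, by 0.99 on the log2 scale. Among the Yme1l-/- libraries, replicate 1 had the lowest CPM at 7 of 7 members and at 42.1% of all tested loci. This library was also the one with the fewest fragments of its genotype, and its fold over the WT mean ran from 1.48 for the Parp10 and Plec locus to 5.91 for Parp14. In WT, replicate 1 held the most fragments of its genotype and had the lowest CPM at Parp14, Parp12, Parp9, Dtx3l and Parp11. It was not the lowest at Parp3 or at the Parp10 and Plec locus, and the part of depth in these orders was not tested. When all libraries were thinned to the smallest total, all 7 members were still called higher.

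The 13 tested loci next to the members, or sharing their coordinate range in the tables, gave a mixed picture. Grina, beside Parp10, was called higher (log2 fold change 0.69 ± 0.04, SE), and like the Parp10 and Plec locus it lost its call with the chromosome median removed (0.09, adjusted p = 0.0855). Of the others 5 were called lower and 7 were not called. Around the chromosome 16 genes, Hspbap1 beside Parp14 was lower (-0.43 ± 0.07, SE, adjusted p = 0.000289). Kpna1, an importin gene that follows Parp9, had -0.03 ± 0.05, Wdr5b -0.15 ± 0.12 and Gm15564 -0.18 ± 0.20, none of them called. Kpna1 ran from -0.0524 to -0.0028, Wdr5b from -0.23 to -0.069 and Gm15564 from -0.36 to -0.0456 as libraries were left out. Next to Parp3, Pcbp4 was lower (-0.80 ± 0.07, and -0.44 with the chromosome median removed). Tex264 was not called (0.03 ± 0.06) but was called higher with that median removed (0.39, adjusted p = 0.000169), while the lower call of Rrp9 (-0.25 ± 0.08, adjusted p = 0.0225) was lost without WT replicate 1 or 2 or Yme1l-/- replicate 2 or 3 (adjusted p of 0.0505 to 0.0778). Beside Parp12, Hipk2 was lower (-0.30 ± 0.08, and -0.64 with the chromosome median removed) and Kdm7a was not called (0.14 ± 0.19). Kdm7a rested on WT replicates 1 and 2, with -0.0252 without the former and a call at 0.40 without the latter. Beside Parp11, Tspan11 had 30 to 66 fragments in WT and at most 1 in Yme1l-/-, at least 15.3-fold lower against a floor of 3 counts per library, and Gm7308 was not called (-0.42 ± 0.21) but was called lower with the chromosome median removed (-0.76, adjusted p = 0.00805). The locus BC024139,EPPK1, before Plec, was not called either (-0.79 ± 0.44). It was called lower without WT replicate 1 (-1.14, adjusted p = 0.0147) and with the chromosome median removed (-1.38, adjusted p = 0.0196), and stood at -0.22 (adjusted p = 0.643) without WT replicate 3.

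The other 10 PARP family genes in the list were all tested, and their median log2 fold change was 0.06. Of them 2 were called higher, 3 lower and 5 neither, and none rose 2-fold. Higher were Parp8, from 9.58 ± 0.771 to 16.4 ± 2.43 CPM (SD, n = 3 each; log2 fold change 0.78 ± 0.11, SE, adjusted p = 7.85e-05), and Zc3hav1, the gene of the RNA-binding antiviral protein ZAP, from 118.3 ± 1.84 to 179 ± 8.30 CPM (0.60 ± 0.05, SE, adjusted p = 5.67e-07, and 0.26 with the chromosome median removed). Zc3hav1 lay below Parp12, to which its product is related, and close to the merged Parp10 locus. The chain-building enzymes did not rise. Tnks2 (-0.29 ± 0.04, SE, adjusted p = 0.000148) and Parp2 (-0.25 ± 0.06, adjusted p = 0.00281) were lower, the call of Parp2 being lost with the chromosome median removed (-0.0766, adjusted p = 0.274), and Parp1 had 0.04 ± 0.04 (adjusted p = 0.401). The lower call of Tnks (-0.17 ± 0.06, adjusted p = 0.0287) was lost without WT replicate 2 or 3 or Yme1l-/- replicate 1 or 3, at adjusted p of 0.053 to 0.111. Tiparp, known as a target of the aryl hydrocarbon receptor, had -0.20 ± 0.09 (adjusted p = 0.0802) and was called without WT replicate 3 (-0.28, adjusted p = 0.0171), whereas it stood at -0.0757 (adjusted p = 0.313) without WT replicate 2. Parp4 (0.09 ± 0.09), Parp6 (0.07 ± 0.08) and Parp16 (0.10 ± 0.13) were not called. Leaving out a library moved Parp1 between 0.02 and 0.07, Parp4 between 0.0083 and 0.16 and Parp6 between 0.03 and 0.12. With the median of each chromosome removed, 6 of the 10 were called higher and 1 lower, because Parp1, Parp4, Parp6 and Parp16 lie on chromosomes whose median was below 0. Parp8 then stood at 0.70, above the member Parp11 at 0.54.

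**Figure D4:**
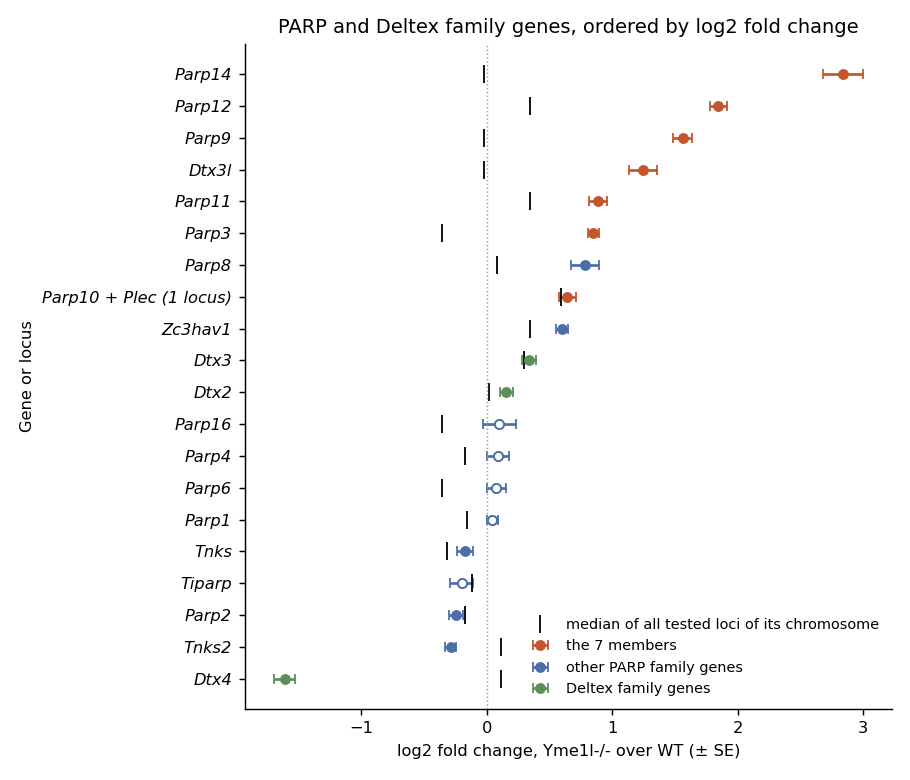
Log2 fold changes (Yme1l-/- over WT) with SE for the 7 members, 10 other PARP genes and 3 Deltex genes; filled points have an adjusted p under 0.05, open points do not, and short black lines give the median of all tested loci of each gene's chromosome. The first 6 places are held by members, from Parp14 at 2.84 to Parp3 at 0.85, with Parp8 next at 0.78. Parp10 with Plec sits almost on the median of chromosome 15, and with chromosome medians removed Parp8 stands above Parp11.

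Levels of different genes can be set side by side only per transcript length, for which the deposited FPKM (fragments scaled to transcript length and to library size) give the authors' combined value per genotype, without SD or n. Among the 15 PARP genes counted as loci of their own, Parp14 was the lowest in WT at 0.737 FPKM and reached 5.32 FPKM in Yme1l-/-, place 13. Parp12 moved from place 8 at 9.01 FPKM to place 5 at 33.1 FPKM, and Parp9 from place 11 at 4.42 FPKM to place 8 at 13.3 FPKM. Parp9 thereby passed Parp11, which went from 6.51 to 11.7 FPKM, places 10 and 9. Parp3 was the highest of the unmerged members in both genotypes, at 24.0 FPKM in WT and 42.3 FPKM in Yme1l-/-, where only Parp1 and Tnks2 exceeded it. Dtx3l had 1.70 FPKM in WT and 4.03 FPKM in Yme1l-/-, above Parp14 in WT and below it in Yme1l-/-.

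**Figure D5:**
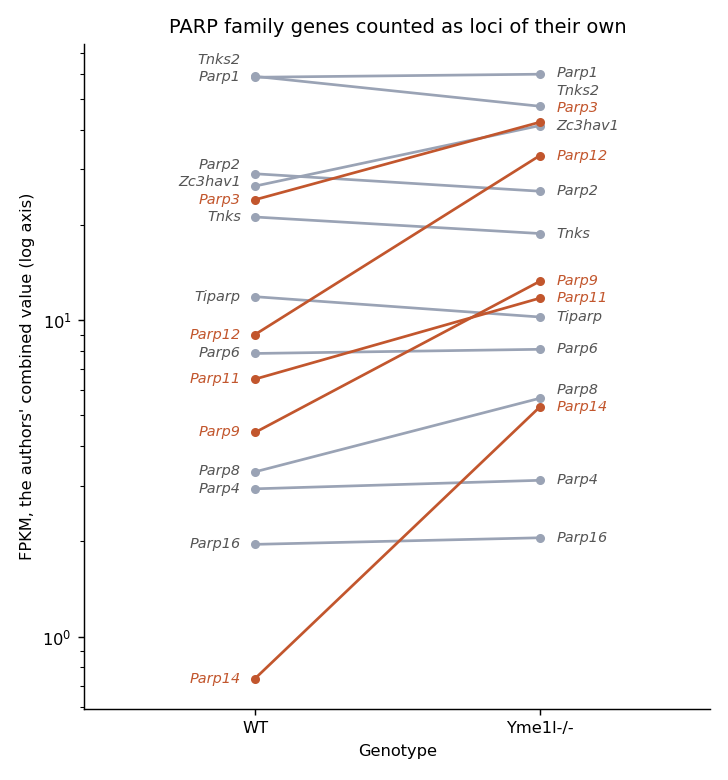
The authors' combined FPKM per genotype on a log axis for the 15 PARP genes counted as loci of their own, with members in orange and other genes in grey; lines join the WT and Yme1l-/- values of a gene, and no replicate spread is available on this scale. All 5 orange lines rise, most steeply for Parp14 (0.737 to 5.32) and Parp12 (9.01 to 33.1).

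DTX3L belongs to the Deltex family of ubiquitin ligases, of whose other tested genes 2 were called higher and 1 lower. Dtx1 was not tested, with at most 3 fragments in any library. Dtx4 fell from 25.4 ± 2.17 to 8.34 ± 0.530 CPM (SD, n = 3 each; log2 fold change -1.61 ± 0.08, SE, adjusted p = 2.22e-08). Dtx3 was higher by a log2 fold change of 0.33 ± 0.05 (SE, adjusted p = 0.000193), close to the median of its chromosome and no longer called with that median removed (0.04, adjusted p = 0.565), and Dtx2 by 0.16 ± 0.05 (adjusted p = 0.0181), a call that was lost without WT replicate 3 (adjusted p = 0.0634) or Yme1l-/- replicate 2 (adjusted p = 0.0824). The median of the 3 tested genes was 0.16.

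Genes that remove or bind ADP-ribose gave no common direction. Of 15 tested, 6 were called higher, 3 lower and 6 neither, around a median log2 fold change of 0.05. The macrodomain genes Macrod2 (1.71 ± 0.18, SE), H2afy2 (0.91 ± 0.05) and Macrod1 (0.90 ± 0.17) rose most among those called. Macrod2 reached only 4.54 ± 0.571 CPM (SD, n = 3) in Yme1l-/-, against 1.39 ± 0.319 CPM in WT. Enpp1, a phosphodiesterase of the cell surface that also degrades the cGAS product cGAMP, fell from 47.2 ± 19.6 to 2.25 ± 0.338 CPM (SD, n = 3 each; -4.37 ± 0.42, SE, adjusted p = 0.000561). WT replicate 2 held 2273 of its fragments against 1082 and 1287 in the other WT libraries, and all Yme1l-/- libraries were far below. Adprh, an ADP-ribosylarginine hydrolase, was lower (-0.52 ± 0.05), and the lower call of Gdap2 (-0.14 ± 0.06, adjusted p = 0.0487) was lost in 12 of 14 alternatives, among them each of the 6 that left out a library. Parg, the main enzyme that cuts ADP-ribose chains, had -0.04 ± 0.05 and was not called.

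NAD+ is the substrate of the active PARP enzymes. In the list of genes for its supply and use, 16 were tested, 5 were called higher, 6 lower and 5 neither, and the median log2 fold change was -0.06. Nampt, the rate-limiting enzyme of NAD+ salvage from nicotinamide, fell from 127 ± 6.35 to 84.3 ± 3.26 CPM (SD, n = 3 each; -0.59 ± 0.05, SE, adjusted p = 1.48e-06). With the median of chromosome 12 removed, Nampt stood at -0.16 (adjusted p = 0.0216). Nmnat2 (-1.81 ± 0.14) and Sirt5 (-0.59 ± 0.19, adjusted p = 0.0158) were lower too, the latter losing its call without WT replicate 3 (adjusted p = 0.0773) or Yme1l-/- replicate 2 (adjusted p = 0.0592). Higher were Nnmt, which methylates nicotinamide, the NAD+ hydrolase gene Sarm1 (1.79 ± 0.21) and Sirt6 (0.72 ± 0.07, and 0.43 with the chromosome median removed), a nuclear NAD+-dependent deacylase. Nnmt rose from 2 to 8 fragments per WT library to a mean of 4.20 ± 0.256 CPM (SD, n = 3) in Yme1l-/-, a log2 fold change of 4.96 ± 0.29 (SE, adjusted p = 6.26e-08). With 2 WT libraries at 3 counts or fewer this value is uncertain, and it was 5.73 without WT replicate 2.

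The members were last set beside genes of interferon receptors and of interferon signalling. Of the 11 loci reported from this list, 2 of them merged with a neighbouring gene, 9 were called higher and 2 lower, and the median log2 fold change was 0.59. Stat2, a transcription factor gene of type I interferon signalling, rose from 18.2 ± 1.05 to 61.5 ± 6.42 CPM (SD, n = 3 each; log2 fold change 1.76 ± 0.08, SE, adjusted p = 7.48e-09). The locus of Irf9, counted with Rnf31, rose from 54.5 ± 1.29 to 95.9 ± 2.79 CPM (0.82 ± 0.05, adjusted p = 4.2e-08). Irf7 (2.57 ± 0.11), an interferon regulatory factor gene, was also higher. Lowest among those called were the receptor gene Ifnar1 (-0.19 ± 0.05, adjusted p = 0.00341), Tyk2 (-0.17 ± 0.06, adjusted p = 0.036) and Jak1, which was higher by 0.27 ± 0.04. The lower call of Tyk2 was lost without WT replicate 1 or 3 or Yme1l-/- replicate 1 or 2, at adjusted p of 0.0648 to 0.102, and with chromosome medians removed Tyk2 was called higher (0.19, adjusted p = 0.021).

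To find loci whose libraries followed those of the chromosome 16 genes, the mean log2 CPM of Parp9, Dtx3l and Parp14 was used. It was correlated over the 6 libraries with each of 10596 other loci at a mean of 1 CPM or more. Members, merged loci and loci with names of the Gm, Rik or accession type were left out. The 3 most alike were Ift74, Stac2 and Apobec3, with Pearson correlations of 0.9997, 0.9997 and 0.9994. Apobec3, a cytidine deaminase gene with antiviral functions, was at 11.8, 13.3 and 12.1 CPM in WT and at 26.8, 30.2 and 29.8 CPM in Yme1l-/- (log2 fold change 1.23 ± 0.07, SE, and 0.63 with the median of chromosome 15 removed). Its libraries therefore had the same order as those of Parp14 in WT, with replicate 2 the highest, and in Yme1l-/-, with replicate 1 the lowest. Stac2 had a log2 fold change of 1.65 ± 0.11 (SE), whereas Ift74, an intraflagellar transport gene, rose by only 0.45 ± 0.05. Because the genotypes make up most of the variation among 6 libraries, 466 loci had a correlation over 0.99 and 2224 over 0.95, so a high value marks a shared profile and not a particular one.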

How the data were processed

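Stranded poly(A) libraries of 3 WT and 3 Yme1l-/- MEF cultures, grouped by the labels, were sequenced as read pairs. According to the methods and processing notes, the authors mapped reads to mm10 (GRCm38) with HISAT2 2.0.4, assembled transcripts with StringTie 1.3.3 and compared genotypes with Cufflinks and Cuffdiff 2.2.1. The authors deposited raw fragment counts per locus (whole numbers, not normalized), with 635 loci joining several genes. The deposited comparison table gives FPKM as 1 combined value per genotype. Its columns of fold changes, test statistics, p and q were not used. How multi-mapped fragments were counted is not given in the sources used here.

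Counts were tested in R 4.3.3 with edgeR 4.0.16 (filterByExpr minimum count 10, TMM scaling, robust quasi-likelihood test, two-sided, no covariates) and limma 3.58.1, with Benjamini-Hochberg adjustment over 13867 loci and calls at 0.05. The fit was also run on simulated counts with 200 changed loci. That is far fewer than the 9387 called here, so this run cannot show how the fit performs under such wide differences. Replicates were not repeats of the same counts (chi-square per degree of freedom 8.54 to 37.2), so each counted as 1 sample. Standard errors came from the fold change and test statistic. The floor of 3 counts covers counting error only. The ratio of Parp9 to Dtx3l used a pseudocount of 0.5. Gene positions are from the GENCODE annotation of GRCm38, promoter windows from RefSeq (GRCm38.p6).

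Members and gene lists were chosen with earlier results of these data known. Named were all members, Yme1l1, tested PARP and Deltex genes, the 3 highest and 3 lowest calls of other lists with Stat2 and Irf9, the 3 loci most correlated with the chromosome 16 genes, and neighbouring loci. Parg, Dtx1 and marker genes were named outside this rule, from their lists. Values of some list members are not reported here. Alternatives were RLE or upper-quartile scaling, DESeq2 1.42.0, other filters, a replicate block, chromosome medians removed, thinning, no pseudocount for the ratio, and leaving out each library.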

Additional observations from a re-analysis of the deposited data

How the results depend on the processing

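Values of members, of the list counts and of most named loci were recomputed with 14 alternatives, and the Parp9 to Dtx3l ratio with 8. Nnmt and Tspan11 had 13, since a filter on every library left them out, and marker genes and Parg had none. For the 7 members, 97 of 98 values kept their direction and their call, and the exception was the Parp10 and Plec locus with chromosome medians removed (0.0488, adjusted p = 0.554). Over all alternatives the log2 fold change ran from 2.70 to 2.99 for Parp14, 1.50 to 1.92 for Parp12, 1.50 to 1.62 for Parp9, 1.18 to 1.36 for Dtx3l, 0.54 to 0.94 for Parp11 and 0.83 to 1.21 for Parp3. Calls over all loci numbered 8513 to 10051, with 9387 as reported. With chromosome medians removed, other PARP genes called higher numbered 6 and those lower 1. Deltex genes called higher numbered 1 with chromosome medians removed or with DESeq2, and 1 to 2 when libraries were left out. The lower call of Tyk2 was also lost with upper-quartile scaling, no filter, thinning or DESeq2, and those of Tnks (adjusted p = 0.13) and Rrp9 (0.0651) with upper-quartile scaling, while DESeq2 called Tiparp lower (0.0497). Directions turned for Tnks (0.14), Tyk2 (0.19, called higher), Rrp9 (0.11) and Kdm7a (-0.20) with chromosome medians removed, for Kdm7a without WT replicate 1 (-0.0252), for Parp16 without Yme1l-/- replicate 3 (-0.0067), for Kpna1 with upper-quartile scaling (0.0247), and for Tex264 without WT replicate 2 (-0.0144), without Yme1l-/- replicate 1 (-0.0164) and with thinning (-0.0005). When libraries were left out, Parp16 ran from -0.0067 to 0.17, Tex264 from -0.0164 to 0.0663 and Kdm7a from -0.0252 to 0.40. Of 670 values of single loci, 611 kept direction and call. The cause was not tested.

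Over all tested loci, the deviations of same-numbered libraries correlated at 0.117, -0.0799 and 0.0427. These weak values gave no reason to pair samples in the main fit, but they do not exclude pairing by replicate number. At Parp14, Dtx3l and Parp11 the replicates had the same order in both genotypes, and at the other members the order differed. In a fit with a replicate block, Parp14 had a log2 fold change of 2.84 and all 7 members were called. The SE of Parp14 was 0.07 with the block against 0.16 without it, and that of Dtx3l 0.08 against 0.11. Calls over all loci rose to 9794, and among the genes named the call of Gdap2 was lost (-0.14, adjusted p = 0.0519).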
